A study of Mus musculus with 22 samples.

Results

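Tumor-associated inguinal white adipose tissue (IWAT) of obese mice was compared with the same tissue of lean mice, across all genes that passed a filter on low counts. The comparison took every library labelled as tumor-associated, 6 from obese mice on a high fat diet (HFD) and 5 from lean mice on chow, which is 11 of the 22 libraries of the series, and 14458 of the 23420 genes in the count table entered the test. All mice were wildtype C57Bl/6 females. Both diets had been fed for 16 weeks, with 60% of the HFD calories coming from fat, and the mice were about 20 weeks old when 100000 cells of E0771, a mouse breast cancer line that grows in C57Bl/6 mice, were placed in the left inguinal fat pad in a mixture of PBS and Matrigel. The tissue was collected 2 weeks later, 1 library was made per pad, the inguinal lymph node was removed, and a thin sheet of fat over the tumor was discarded. Obese and lean mice shared the injected cells, the side, the strain and the time, and differed in diet. Per the study the tumors of the obese mice were also larger, so that diet and the size of the adjacent tumor cannot be told apart in this comparison. The right pads of the same 11 mice, called control IWAT, had received PBS and Matrigel without cells and serve here to show where the diet difference was also present without an adjacent tumor.

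White adipose tissue stores triglyceride in adipocytes and makes part of it from glucose and fructose through de novo lipogenesis, a pathway that high fat feeding is known to suppress. Obese fat is known to gather macrophages that take up lipid from failing adipocytes, and to lay down matrix. In female mice the inguinal pad also holds the mammary ducts, nerves and vessels, so that its RNA comes from adipocytes, progenitors, immune cells, endothelium and epithelium together. In such bulk tissue fewer cells of a type and less RNA per cell cannot be told apart.

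Expression is given as CPM, the counts of a gene scaled to the size of its library after TMM normalization, and a gene was called at an adjusted p under 0.05 in edgeR's quasi-likelihood test with Benjamini-Hochberg adjustment, fitted to all 4 groups. Between 6099692 and 7768729 reads were counted on genes per tumor-associated library. The HTSeq lines that name no gene held 60.8 to 64.2% of all counts in lean and 57.0 to 59.8% in obese tumor-associated libraries, without overlap. The diets differed in tumor-associated IWAT at 6802 of the 14458 genes, which is 47.0% of all tested, with 3569 higher in obese mice (24.7%) and 3233 lower (22.4%). The median log2 fold change over all genes was 0.03. In 3528 genes (24.4%) the 6 obese and the 5 lean libraries did not overlap in CPM. All obese libraries lay above all lean ones in 1593 of these and below them in 1935. In control IWAT the same diets differed at 1380 genes higher in obese mice (9.54%) and 1088 lower (7.53%). Of the genes called in tumor-associated IWAT, 677 were called higher and 758 lower in both pads, and 20 were called in opposite directions. The adipocyte genes that define the tissue were present in every library, with a summed level of 16375 to 26259 CPM in lean and 4073 to 25369 CPM in obese tumor-associated IWAT for 24 of 24 genes.

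The 6 obese libraries were unlike each other. The median SD of log2 CPM over genes was 0.393 among obese and 0.203 among lean tumor-associated libraries. On the first component of a principal component analysis of the 11 libraries, which held 61.5% of the variance, the lean libraries lay between -68.9 and -43.0, obese mouse 1 at -9.87, mice 3 and 8 near 22, mouse 2 at 44.9, mouse 0 at 79.7 and mouse 4 at 131. Of the 3569 genes called higher, mouse 4 had the highest obese value in 77.6% and mouse 1 the lowest in 63.1%, and mouse 1 lay above all lean libraries in 57.7% of them against 97.6% for mouse 0. Of the 3233 genes called lower, mouse 4 had the lowest value in 62.9% and mouse 1 the highest in 52.9%. Obese mice 0, 2 and 4, which lay farthest from the lean libraries on the first component, were left out together in an alternative chosen after seeing the data. It keeps fewer obese libraries, those nearer the lean ones, so a lower count from it may follow from that choice alone. Leaving out these mice left 4432 genes called, 3836 of them among the 6802 with the same direction. That fit called 2093 of its 14641 genes higher and 2339 lower, fewer in each direction than the reported fit.

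**Figure D1:**
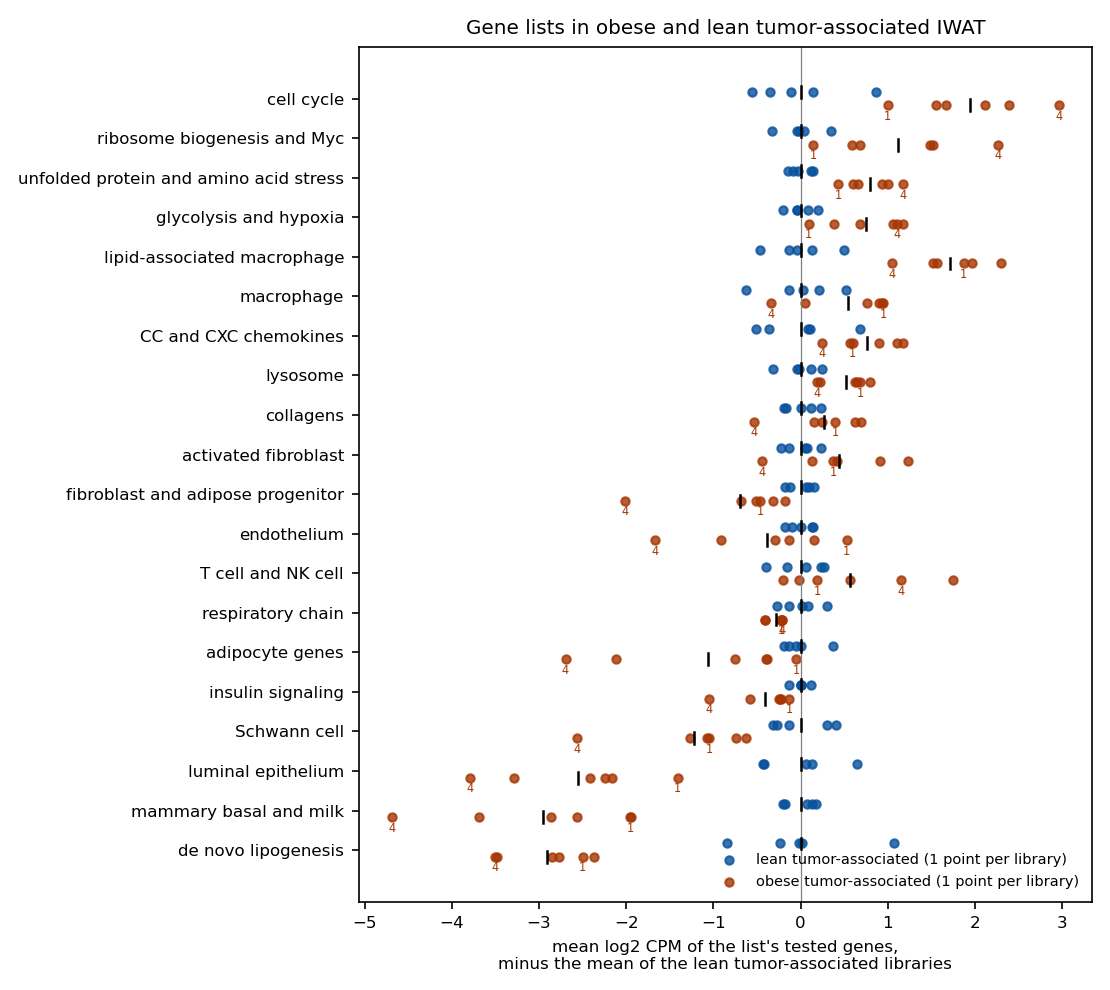
Mean log2 CPM of the tested genes of 20 lists in each tumor-associated library, relative to the mean of the 5 lean libraries (x axis, log2 units). Each point is a library, short bars are group means, and the numbers 1 and 4 mark obese mice 1 and 4. The lipogenesis, Schwann cell and both mammary lists were lower in all 6 obese libraries than in any lean one, the cell cycle, stress and lipid-associated macrophage lists were higher in all 6, and the adipocyte, endothelium and fibroblast lists were lowest in mouse 4.

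Fat synthesis had the lowest median of the 42 gene lists examined. Of the 15 genes of de novo lipogenesis, 14 were called lower in obese tumor-associated IWAT and none higher, against 22.4% of all genes called lower. Their median log2 fold change was -3.03. In 14 genes all 6 obese libraries lay below all 5 lean ones, against 1935 of the 14458 genes tested. The pathway was also lower in control IWAT, in the pads without an adjacent tumor. There 15 of 15 genes were called lower, against 7.53% of all genes, with a median of -2.89. The difference between the pads was 0.25 (log2, edgeR adjusted p = 0.749) at Fasn and -0.02 (log2, edgeR adjusted p = 0.977) at Scd1.

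Fasn, which encodes fatty acid synthase, lies on chromosome 11 from 120805846 to 120824547 of GRCm38 and overlaps no other annotated gene. It was at 10014, 5099, 9636, 20628 and 8211 CPM in lean mice 0, 2, 3, 6 and 9, and in obese mice it ranged from 321 to 702 CPM with a median of 431. The groups were far apart, and lean mouse 6 was the highest. The log2 fold change was -4.55 (SE 0.40, edgeR adjusted p = 5.31e-07).

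Acaca, whose product acetyl-CoA carboxylase makes the malonyl-CoA used by Fasn, was at 1681, 954, 1699, 3385 and 1488 CPM in the lean mice and between 124 and 159 CPM in the obese mice, and its log2 fold change was -3.75 (SE 0.28, edgeR adjusted p = 1.23e-07). The obese libraries, mouse 4 included, were within a narrow range of each other for this gene. Scd1, the stearoyl-CoA desaturase of adipocytes, was between 26556 and 45798 CPM in lean and between 1319 and 6746 CPM in obese mice, lowest in mice 4 and 0, and its log2 fold change was -2.91 (SE 0.36, edgeR adjusted p = 9.33e-06). Thrsp, a regulator of lipogenesis also known as Spot 14, had a median of 585 CPM in lean and 14.5 CPM in obese mice (log2 fold change -5.14, SE 0.53, edgeR adjusted p = 2.94e-06). Acss2, which makes acetyl-CoA from acetate, fell by 3.84 on the log2 scale. Elovl5, an elongase of polyunsaturated fatty acids, was the 1 gene of the list that was not called (log2 fold change -0.26, edgeR adjusted p = 0.0689).

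The gene with the largest fall of all that met the rule for named genes was Slc2a5, the fructose transporter. It was at 17.3, 3.58, 11.8, 47.8 and 10.3 CPM in the lean mice and at 0.481, 0, 0, 0.129, 0 and 0 CPM in obese mice 0, 1, 2, 3, 4 and 8, which is 662 counts in the lean and 4 in the obese libraries. It was as low in obese control IWAT (0.0718 ± 0.0796 CPM, SD, n = 6), where lean control IWAT had 44.7 ± 29.5 CPM (SD, n = 5). Abcc8 and Kcnj11, which encode both subunits of the ATP-sensitive potassium channel and lie next to each other on chromosome 7 from 46093953 to 46180033, were also among the 15 largest falls. Abcc8 was between 11 and 17.1 CPM in lean mice and between 0 and 1.94 CPM in obese mice. Kcnj11 was between 2.88 and 3.73 CPM in lean mice, and 4 of 6 obese libraries were at 0.

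**Figure D2:**
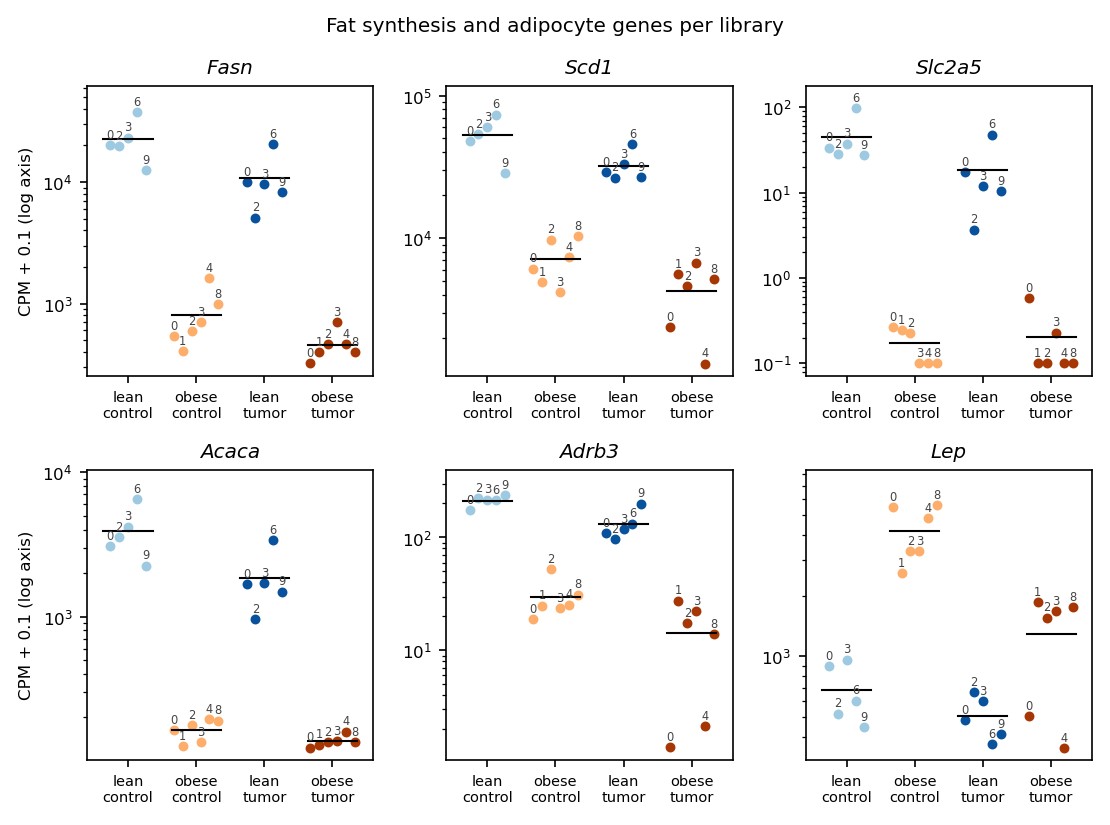
CPM of 6 genes in each of the 22 libraries (y axis, CPM + 0.1 on a log axis), grouped by diet and pad, with the mouse number beside each point and a line at the mean of CPM + 0.1. Fasn, Scd1, Slc2a5 and Acaca were low in obese mice in both pads, Adrb3 was lowest in obese tumor-associated mice 0 and 4, and Lep was high in 4 of the 6 obese tumor-associated libraries and near the lean level in mice 0 and 4.

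Promoters of Fasn and Thrsp are printed because the CCAAT letters, to which the factor NF-Y binds, occurred in 70.6% of 17 promoters of the lipogenesis list (13 of its 15 genes matched) against 37.4% of 14488 promoters of the genes tested. Promoters are RefSeq sequences of GRCm38.p6, 250 bases before to 50 bases after a start, and both strands were searched. The share was 39.4% for genes called higher and 37.2% for genes called lower, so that over all called genes it hardly differed by direction. The 150 bases before the start are given on the strand of the gene, with CCAAT on either strand in capitals.
Fasn, chr11:120824548-120824697, minus strand: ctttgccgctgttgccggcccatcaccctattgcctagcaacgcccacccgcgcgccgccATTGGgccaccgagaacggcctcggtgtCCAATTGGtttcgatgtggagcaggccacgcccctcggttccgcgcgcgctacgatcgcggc
Thrsp, chr7:97417551-97417700, minus strand: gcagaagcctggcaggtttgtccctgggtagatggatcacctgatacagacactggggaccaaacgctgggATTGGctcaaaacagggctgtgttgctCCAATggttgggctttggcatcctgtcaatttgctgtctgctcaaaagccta

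Other adipocyte genes fell less evenly. Of 24 adipocyte genes, 11 were called lower and 1 higher, against 22.4% and 24.7% of all genes, with a median of -0.76. In 21 of the 24 genes mouse 4 was the lowest obese library and in 21 mouse 1 the highest. Without obese mice 0, 2 and 4 the list held 5 genes called lower and 6 called higher, with a median of -0.20. Adrb3, the beta 3 adrenergic receptor of adipocytes, ranged from 96.2 to 199 CPM in lean mice and from 1.28 to 27.4 CPM in obese mice, with the lowest values in mice 0 and 4, and its log2 fold change was -3.21 (SE 0.47, edgeR adjusted p = 3.65e-05). Cfd, which encodes adipsin, fell by 2.82 (log2) from a lean median of 2258 CPM to an obese median of 409 CPM, and Retn, which encodes resistin, fell by 2.67 (log2). The groups did not overlap at these 3 genes, and all 3 were called lower in obese control IWAT too.

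Lep, the adipocyte hormone leptin, went the other way. It was at 485, 664, 599, 369 and 412 CPM in the lean mice and at 1856, 1556, 1677 and 1752 CPM in obese mice 1, 2, 3 and 8, but at 506 and 352 CPM in obese mice 0 and 4. The groups therefore overlapped, although the gene was called (log2 fold change 1.34, SE 0.37, edgeR adjusted p = 0.00529). In control IWAT the fold was 2.61 (log2). Fabp4, the most abundant gene of the list, was not called, with a lean median of 2719 CPM and an obese range of 824 to 5169 CPM, and Adipoq, which encodes adiponectin, was not called either (log2 fold change -0.69, edgeR adjusted p = 0.101). Plin1, the main coat protein of the adipocyte lipid droplet, was called lower (log2 fold change -0.90, edgeR adjusted p = 0.0343), a call lost in 7 of 20 alternative fits, among them those without lean mouse 0, lean mouse 9 or obese mouse 0 (edgeR adjusted p = 0.055, 0.0852 and 0.0714).

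In the reported fit the called genes of triglyceride synthesis were all lower, and those of lipolysis and the lipid droplet went in both directions. Of 18 genes of triglyceride synthesis and fatty acid uptake 7 were called lower and none higher, among them Gpam, the acyltransferase of the first step (log2 fold change -1.94, SE 0.20, edgeR adjusted p = 2.39e-06), and Mogat1. Without obese mice 0, 2 and 4 the list held 3 called lower and 3 higher. Of 15 genes of lipolysis and the lipid droplet 3 were called higher and 4 lower, shares near the 24.7% and 22.4% of all genes. Plin2, a lipid droplet protein of many cell types including macrophages, was at 226 to 449 CPM in lean and 517 to 1062 CPM in obese mice without overlap (log2 fold change 1.19, SE 0.25, edgeR adjusted p = 0.000739), and did not pass the test in control IWAT, where its log2 fold change was 0.01. Hilpda, a hypoxia-induced inhibitor of lipolysis, was at 4.82 to 8.65 CPM in lean and 16.8 to 31.4 CPM in obese mice. G0s2, another inhibitor of lipolysis, fell by 1.65 on the log2 scale.

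Transcripts for the entry of pyruvate into fuel oxidation were lower. Of 23 genes of the TCA cycle and pyruvate dehydrogenase, 11 were called lower and 1, Idh2, higher, against 22.4% of all genes called lower. Control IWAT had 18 of the 23 called lower and 1 higher, with a median of -0.55, against a median of -0.35 in tumor-associated IWAT. Pdha1, Pdhb, Dlat and Pdhx, which encode parts of pyruvate dehydrogenase, were all called lower, with Pdha1 at 306 to 567 CPM in lean and 126 to 205 CPM in obese mice (log2 fold change -1.27, SE 0.18, edgeR adjusted p = 2.46e-05). Pcx, which encodes pyruvate carboxylase, fell by 2.35 (log2). Of 32 respiratory chain genes, 7 were called lower and 1 higher in tumor-associated IWAT, with a median of -0.17. That share called lower was near the 22.4% of all genes. By contrast, 30 of 32 were called lower in control IWAT, with a median of -0.55. A test of the pad difference called 2 of the 32, Cox7b and Atp5g1. Of 19 genes of fatty acid oxidation 4 were called lower, again near the share of all genes, and 1, Cpt1a, higher. Cpt1a, which lets fatty acids into mitochondria, was at 62.9 to 133 CPM in lean and 158 to 257 CPM in obese mice, a log2 fold change of 1.03 (SE 0.19, edgeR adjusted p = 0.000281) in tumor-associated and 1.45 in control IWAT.

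Of 14 genes of brown and beige fat 8 were called lower, against 22.4% of all genes, and 1, Tnfrsf9, was called higher. The 8 included Ppargc1a, a coactivator of mitochondrial genes (4.82 to 12 CPM in lean and 0.481 to 3.49 CPM in obese mice). Ucp1, the uncoupling protein, was between 0 and 18.1 CPM in lean and between 0 and 0.422 CPM in obese mice, so that the groups overlapped. Of 20 genes listed under insulin signaling 8 were called lower and 4 higher, against 22.4% and 24.7% of all genes. The 8 called lower included Insr, Irs1, Pik3r1, Akt2, Foxo1 and Slc2a4. The list also holds a pyruvate dehydrogenase kinase, which was not called and stands on the glycolysis list too. Insr lost its call in 12 of 20 alternative fits, where its log2 fold change ranged from -0.49 to -0.15. Irs1, the adaptor protein of the insulin receptor, was at 309 to 396 CPM in lean mice and at 17.2 to 137 CPM in obese mice (log2 fold change -2.0, SE 0.31, edgeR adjusted p = 5.87e-05), and Slc2a4, the insulin-responsive glucose transporter, fell by 2.34 (log2). Trib3, Ptpn1, Akt1 and Pik3ca were called higher. Of 20 genes of cholesterol synthesis and uptake 5 were called lower and 2 higher, compared with 14 lower and none higher in control IWAT. The 5 of 20 were near the 22.4% of all genes called lower.

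Genes of cell division and growth rose. Of 34 cell cycle genes, 33 were called higher in obese mice and none lower, against 24.7% of all genes called higher, with a median log2 fold change of 2.22. In 22 of them all obese libraries lay above all lean ones, against 1593 of the 14458 genes tested. In control IWAT 2 were called, with a median of 0.74. Ccnd1, which encodes cyclin D1, was the exception that was not called. In 31 of the 34 genes mouse 4 was the highest obese library, and in 34 mouse 1 was the lowest. Without obese mice 0, 2 and 4, 29 were called higher with a median of 1.49.

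Ccnb1, which encodes the mitotic cyclin B1 (chromosome 13 from 100778650 to 100786570), was at 6.21, 5.91, 3.67, 11.3 and 7.26 CPM in the lean mice. In obese mice 0, 1, 2, 3, 4 and 8 it was at 81.5, 19, 63.5, 39.3, 129 and 39.1 CPM. Every obese library lay above the highest lean one, and mouse 4 was far above mouse 1, with a log2 fold change of 3.17 (SE 0.49, edgeR adjusted p = 5.65e-05). Aurka, which encodes the mitotic kinase Aurora A, had an obese range of 12 to 94 CPM and a lean range of 2.99 to 6.95 CPM (log2 fold change 3.05, SE 0.45, edgeR adjusted p = 4.12e-05). Top2a, which encodes the topoisomerase that untangles replicated chromosomes, was at 46.7 to 159 CPM in lean and 154 to 800 CPM in obese mice, and lean mouse 6 lay within the obese range. Mki67, the proliferation marker Ki-67 and the most abundant gene of the list, rose less, from a lean median of 121 CPM to an obese median of 341 CPM (log2 fold change 1.19, SE 0.37, edgeR adjusted p = 0.0129), and mouse 4 was not its highest library. Lean mouse 6 lay inside the obese range, and the call was lost without obese mice 0, 2 and 4 (edgeR adjusted p = 0.0723).

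All 22 genes of ribosome biogenesis and Myc were called higher, against 24.7% of all genes, with a median of 1.22. None of the 22 was called by edgeR in control IWAT (0 at an unadjusted p under 0.05, and 0 by DESeq2 and limma voom), where the median was 0.06. In all 22 genes mouse 4 was the highest and mouse 1 the lowest obese library. All obese libraries lay above all lean ones in 3 of the 22, a share near that of all genes tested (1593 of 14458). Without obese mice 0, 2 and 4 the count was 12 and the median 0.44. Myc, the transcription factor that drives ribosome production, was at 38.9, 34.2, 31.4, 51.4 and 31 CPM in the lean mice and at 172, 43.1, 258, 105, 295 and 66.4 CPM in obese mice 0, 1, 2, 3, 4 and 8 (log2 fold change 2.07, SE 0.40, edgeR adjusted p = 0.000416). Obese mouse 1 lay within the lean range. Nop2, a ribosomal RNA methyltransferase, was at 21.8 to 42.2 CPM in lean and 37.4 to 228 CPM in obese mice (log2 fold change 1.76, SE 0.34, edgeR adjusted p = 0.000399). Odc1, the first enzyme of polyamine synthesis, rose by 2.28 (log2) without overlap, and Ncl, which encodes nucleolin and overlaps several small nucleolar RNA genes, by 1.11 (log2).

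**Figure D3:**
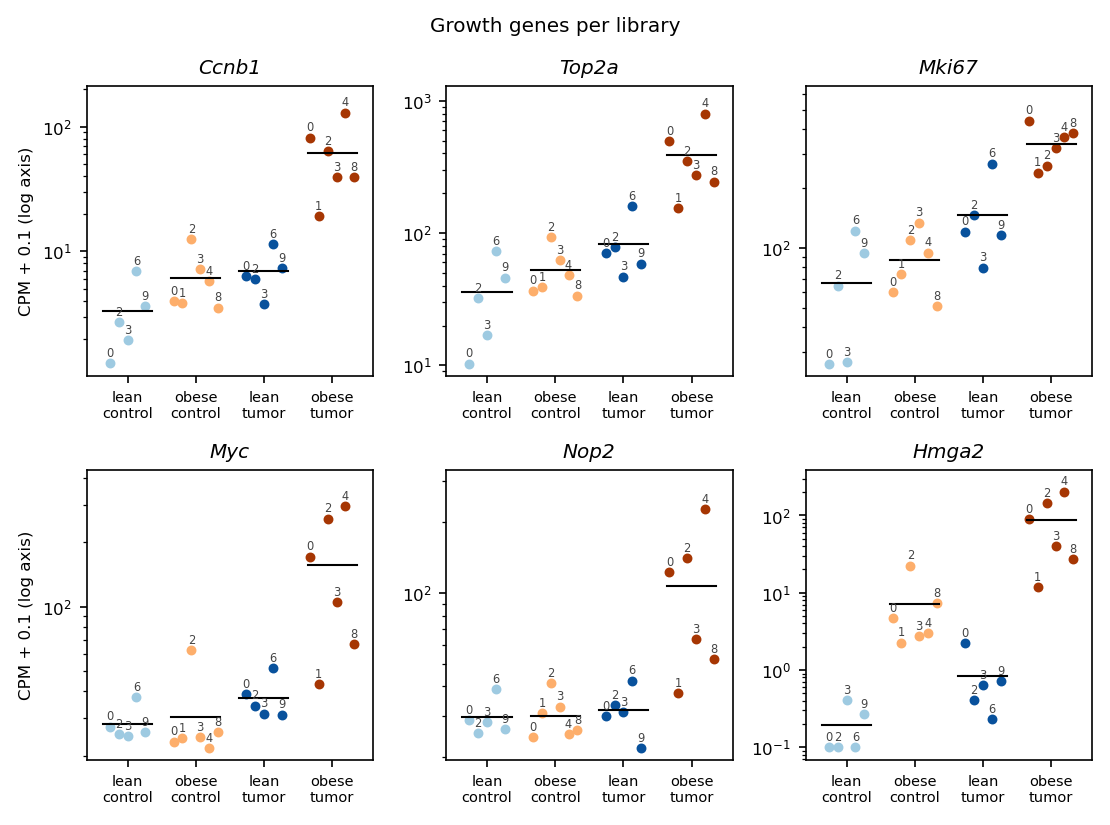
CPM of 6 growth genes in each of the 22 libraries (y axis, CPM + 0.1 on a log axis), with the mouse number beside each point and a line at the mean of CPM + 0.1. In obese tumor-associated IWAT, mouse 1 was the lowest library for all 6 genes and mouse 4 the highest for 5 of them (Mki67 was highest in mouse 0), and Hmga2 in control IWAT was highest in obese mouse 2.

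Promoters of 3 cell cycle genes and of Nop2 are shown for letters found in part of their lists' promoters. CCAAT was found in 82.1% of 28 cell cycle promoters (27 of 34 genes matched), and TTTGAA, the cell cycle genes homology region (CHR), in 42.9% against 12.6% of all promoters. CACGTG, the E-box bound by Myc, was in 27.8% of 18 promoters of the ribosome biogenesis list against 9.46% of all, 12.9% of those of genes called higher and 8.29% of those of genes called lower. The letters GCGCANGCG, bound by nuclear respiratory factor 1, were in 38.9% of the same 18 promoters against 11.8% of all, a larger share than that of the E-box. Of the other motifs searched, the E2F letters TTTNGCGC were in 21.4% of the cell cycle promoters against 2.29% of all, and the GC box GGGCGG in 85.7% against 59.4%. A match is a description of the letters and not a site in use. Capitals mark CCAAT and CHR letters on either strand in the first 3 sequences, and CACGTG in Nop2.
Ccnb1, chr13:100786487-100786636, minus strand: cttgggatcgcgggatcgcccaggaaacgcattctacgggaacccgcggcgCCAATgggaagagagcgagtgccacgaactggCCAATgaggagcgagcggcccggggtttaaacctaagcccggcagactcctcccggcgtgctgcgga
Aurka, chr2:172370571-172370720, minus strand: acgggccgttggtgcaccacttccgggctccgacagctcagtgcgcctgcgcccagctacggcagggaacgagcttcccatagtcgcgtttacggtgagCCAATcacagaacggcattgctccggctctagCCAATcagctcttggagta
Top2a, chr11:99024190-99024339, minus strand: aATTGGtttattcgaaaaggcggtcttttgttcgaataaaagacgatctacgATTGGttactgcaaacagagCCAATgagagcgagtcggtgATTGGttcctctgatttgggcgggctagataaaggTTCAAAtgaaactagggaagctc
Nop2, chr6:125131733-125131882, plus strand: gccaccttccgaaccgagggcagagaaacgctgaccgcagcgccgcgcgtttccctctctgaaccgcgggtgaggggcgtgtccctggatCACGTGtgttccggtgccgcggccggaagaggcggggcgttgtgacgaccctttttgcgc

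Of 21 genes of the unfolded protein and amino acid stress responses 18 were called higher and none lower, against 24.7% of all genes called higher, with a median of 0.58. In 10 of them all obese libraries lay above all lean ones, against 1593 of the 14458 genes tested. The count was 13 without obese mice 0, 2 and 4. Hsp90b1, a chaperone of the endoplasmic reticulum, was at 612 to 802 CPM in lean and 892 to 1326 CPM in obese mice (log2 fold change 0.57, SE 0.11, edgeR adjusted p = 0.000356), with a log2 fold change of 0.00 in control IWAT. Psat1, an enzyme of serine synthesis, rose by 2.19 (log2) without overlap, and Asns, which encodes asparagine synthetase, by 1.81. Of 23 genes of glycolysis and hypoxia 13 were called higher and 1, Vegfa, lower, against 24.7% and 22.4% of all genes. In control IWAT 5 were called higher and 9 lower, against 9.54% and 7.53% of all genes. In tumor-associated IWAT 7 of the 23 were called higher and 1 lower without obese mice 0, 2 and 4. That fit called 2093 of 14641 genes higher. Slc16a3, the lactate exporter, was at 2.47 to 6.82 CPM in lean mice and 11.9 to 151 CPM in obese mice (log2 fold change 4.26, SE 0.56, edgeR adjusted p = 1.61e-05). Gapdh rose by 1.22 (log2) and Pgk1 by 1.67 (log2) in tumor-associated IWAT, and were at -0.80 and -0.19 in control IWAT. Vegfa, the angiogenic factor, fell by 0.85 (log2) from 150 ± 12.4 CPM (SD, n = 5) to 82.9 ± 16.1 CPM (SD, n = 6). Aldoa, the most abundant gene of the list, was not called.

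Germline and embryonic genes picked earlier on these libraries made up 9 of the 15 largest rises. The 15 largest rises that met the rule were Gm364, 1700012B09Rik, 4930550L24Rik, Tex19.1, Dppa4, Tdrd1, Pnma5, Itgad, Hmga2, Rhox5, G730013B05Rik, Nxf3, Lrp2, Fosl1 and Morc1, and in 14 of the 15 mouse 4 was the highest and mouse 1 the lowest obese library. In 5 of them the lean libraries held 3 counts or fewer together. Hmga2, a chromatin protein of embryonic cells and many tumors, was at 2.12, 0.311, 0.543, 0.129 and 0.618 CPM in the lean mice and at 90.5, 11.8, 144, 40.2, 204 and 27.3 CPM in obese mice 0, 1, 2, 3, 4 and 8 (log2 fold change 6.85, SE 0.90, edgeR adjusted p = 1.62e-05). The gene overlaps 9230105E05Rik and other annotated genes. Fosl1, an AP-1 subunit, was between 0 and 1.09 CPM in lean and between 6.72 and 90.4 CPM in obese mice, and Lrp2, the endocytic receptor megalin, between 0 and 0.909 CPM in lean and between 6.21 and 102 CPM in obese mice.

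The sum of 10 germline and embryonic genes, a list picked earlier on these libraries for its high values there and so no independent evidence, was 0.622 to 9.09 CPM in lean and 40.1 to 999.7 CPM in obese tumor-associated IWAT, in the order mouse 4, 2, 0, 3, 8 and 1. In control IWAT it was 0.348 to 2.45 CPM in lean and 5.99 to 85.7 CPM in obese mice. The lowest and the highest obese library for the summed cell cycle and ribosome biogenesis genes were mouse 1 and mouse 4 as well, with 1484 and 5642 CPM for the former and 1544 and 6794 CPM for the latter. The part of the cells that carry the germline transcripts in these rises was not tested.

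Genes of macrophages that handle lipid rose. Of 15 genes of lipid-associated macrophages 11 were called higher and 1, Apoe, lower, against 24.7% and 22.4% of all genes, with a median of 1.77. In 8 of the 15 all obese libraries lay above all lean ones, against 1593 of the 14458 genes tested. In control IWAT 8 were called higher, against 9.54% of all genes, with a median of 0.93. Spp1, which encodes osteopontin, was at 14.8, 4.04, 1.90, 1.16 and 3.71 CPM in the lean mice and between 40.2 and 391 CPM with a median of 187 in the obese mice, with mouse 1 lowest and mouse 4 highest (log2 fold change 5.30, SE 0.70, edgeR adjusted p = 1.59e-05). Mmp12, the macrophage elastase, was at 3.73 to 6.97 CPM in lean and 20.3 to 283 CPM in obese mice (log2 fold change 4.47, SE 0.63, edgeR adjusted p = 2.82e-05). For Mmp12 the order of the obese mice was different, with mouse 4 lowest and mouse 8 highest. Atp6v0d2, a subunit of the vacuolar proton pump, rose by 3.66 (log2) in tumor-associated and 4.05 (log2) in control IWAT. Apoe fell by 0.75 (log2, edgeR adjusted p = 0.0274), and its call was lost in 6 of 20 alternative fits, among them those without lean mouse 0, lean mouse 9 or obese mouse 0 (edgeR adjusted p = 0.0591, 0.0565 and 0.0594).

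Itgad, an integrin of tissue macrophages, was the 1 gene among the 15 largest rises with another order of the obese mice. It was at 0.454, 0.155, 0.408, 0 and 0.154 CPM in the lean mice and at 20.7, 37.2, 14, 37.1, 8.12 and 74.1 CPM in obese mice 0, 1, 2, 3, 4 and 8, so that mouse 4 was lowest (log2 fold change 7.0, SE 0.81, edgeR adjusted p = 6.36e-06). In control IWAT it was at 61.6 ± 45.2 CPM (SD, n = 6) in obese and 0.376 ± 0.184 CPM (SD, n = 5) in lean mice. The gene overlaps others on both strands in the annotation, Cox6a2 among them, and the strand setting of the counting is not given.

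Of 16 general macrophage genes 5 were called higher (Emr1, Cd68, Itgam, Fcgr1 and Msr1) and none lower, with a median of 0.45, so that the share called higher was near the 24.7% of all genes and 11 did not pass the test. In 13 of the 16 the lowest obese library was mouse 4, and without obese mice 0, 2 and 4 the count was 10 with a median of 0.71. Emr1, which encodes F4/80, was at 118 to 200 CPM in lean mice and at 348, 419, 162, 361, 158 and 300 CPM in obese mice 0, 1, 2, 3, 4 and 8, so that mice 2 and 4 lay within the lean range (log2 fold change 0.91, SE 0.23, edgeR adjusted p = 0.00334). Cd68, a lysosomal glycoprotein of macrophages, and Itgam, which encodes CD11b, rose by 1.43 and 1.06 (log2). Csf1r, Lyz2, Mrc1, Cd163 and the C1q chains were not called. Of 25 lysosomal genes 15 were called higher and none lower, against 24.7% of all genes called higher. In 10 of the 25 all obese libraries lay above all lean ones, against 1593 of the 14458 genes tested. Ctsl, which encodes cathepsin L, was at 249 to 477 CPM in lean and 799 to 1150 CPM in obese mice, and Gla, the lysosomal alpha-galactosidase, at 8.75 to 19.3 and 35.6 to 65.1 CPM.

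**Figure D4:**
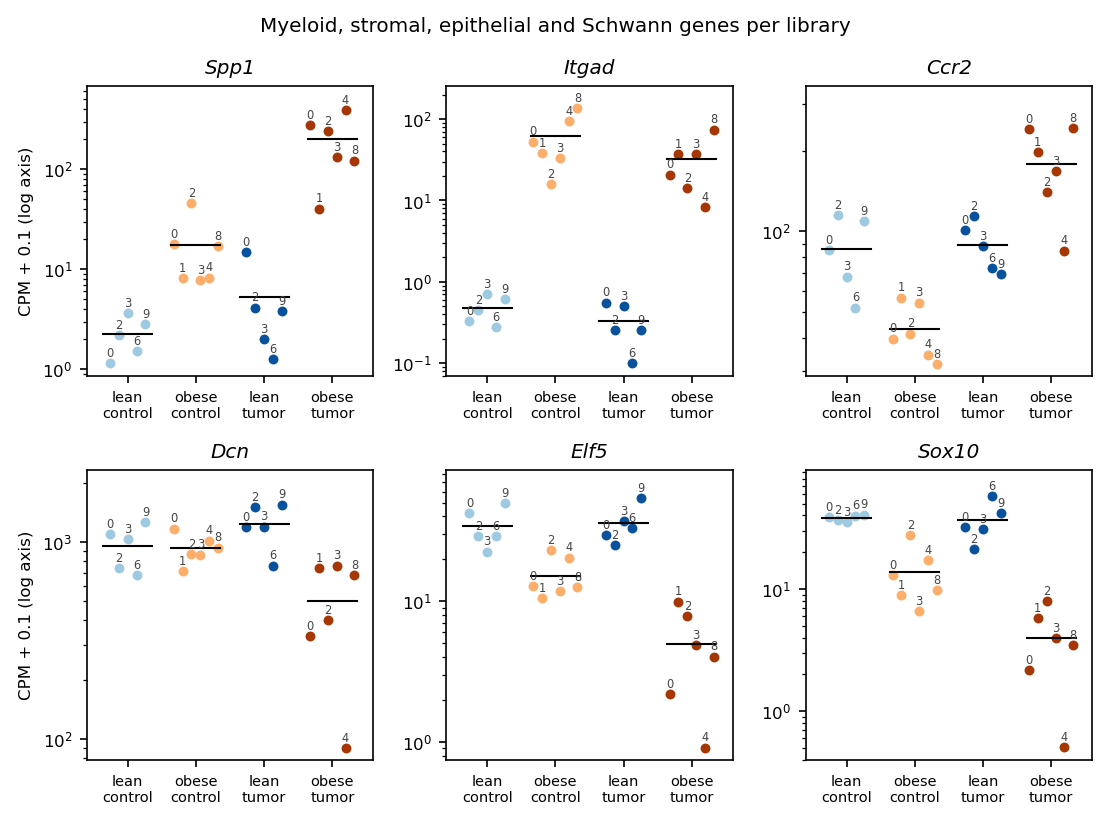
CPM of 6 genes of macrophages (Spp1, Itgad), monocytes (Ccr2), fibroblasts (Dcn), mammary epithelium (Elf5) and Schwann cells (Sox10) in each of the 22 libraries (y axis, CPM + 0.1 on a log axis), with the mouse number beside each point and a line at the mean of CPM + 0.1. Itgad was high in obese mice in both pads, Ccr2 was higher in obese mice in tumor-associated IWAT and lower in control IWAT, and Dcn, Elf5 and Sox10 were lowest in obese tumor-associated mouse 4.

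Of 10 monocyte genes 3 were called higher, Ccr2, Chi3l3 and Vcan, against 24.7% of all genes. Ccr2, the receptor for Ccl2 on monocytes, was at 69.2 to 114 CPM in lean and 84.6 to 242 CPM in obese tumor-associated IWAT (log2 fold change 1.01, SE 0.25, edgeR adjusted p = 0.00258). In control IWAT it was lower in obese mice, at 43 ± 10.2 CPM (SD, n = 6), while lean mice had 85.6 ± 26.7 CPM (SD, n = 5), and the difference between the pads was 2.00 (log2, edgeR adjusted p = 0.031). Of 20 CC and CXC chemokines 9 were called higher and 1, Cxcl12, lower. Ccl2, the monocyte attractant MCP-1, was at 19, 56.1, 16.8, 13.1 and 11.6 CPM in the lean mice and at 70.4 to 170 CPM in the obese mice, without overlap (log2 fold change 2.33, SE 0.40, edgeR adjusted p = 0.000146). Ccl7 rose by 1.3 (log2), with lean mouse 2 inside the obese range, while Ccl8 and Ccl12 were not called, with log2 fold changes of -0.31 and 0.74. Ccl3, Ccl4 and Cxcl2, which attract monocytes and neutrophils, did not overlap between the diets but were low, with Ccl4 at 0.129 to 0.909 CPM in lean and 1.68 to 6.42 CPM in obese mice.

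Of 19 inflammatory cytokines and receptors 6 were called higher and 1 lower, against 24.7% of all genes called higher and 22.4% lower. Il1rn, the interleukin 1 receptor antagonist, was at 1.70 to 6.37 CPM in lean and 22.7 to 55.8 CPM in obese mice (log2 fold change 3.26, SE 0.39, edgeR adjusted p = 7.75e-06), and was also called in control IWAT with 2.75 (log2). Saa3, an acute phase protein of adipocytes and macrophages, rose by 1.99 (log2, SE 0.65, edgeR adjusted p = 0.0162) with overlap. Tnf, Arg1 and Nos2 were not called. Lcn2, which encodes lipocalin 2, fell by 1.85 (log2) without overlap, and stands on the milk list as well. Of 26 interferon response genes 3 were called higher and 1 lower, with a median of -0.05, and the 3 calls of Oas1a, Rsad2 and Bst2 were each lost in 8 or more of 20 alternative fits. Of 20 genes of interferon gamma GTPases and antigen presentation, Cxcl9 and Cxcl10 alone were called.

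None of 18 T and NK cell genes and none of 15 dendritic cell and MHC class II genes was called by edgeR, at medians of 0.89 and -0.14, with obese mouse 3 highest in 14 of each list. At an unadjusted p under 0.05 there were 3 and 0 genes, DESeq2 called 0 and 0, and limma voom 1 and 0. Of 13 B and plasma cell genes 1, Igj, was called lower, and mouse 3 was highest in 12. Of 8 mast cell and eosinophil genes 4 were called lower (Kit, Cma1, Mcpt4 and Cpa3), against 22.4% of all genes. Without lean mouse 2 the calls of Cma1, Mcpt4 and Cpa3 were lost (edgeR adjusted p = 0.0833, 0.0711 and 0.135) and that of Kit was not, and without obese mice 2 and 4 the list had 1 of 9 genes called lower and 1 higher. Kit, the stem cell factor receptor, was at 153, 142, 161, 146 and 161 CPM in the lean mice and at 15 to 64.4 CPM in the obese mice (log2 fold change -1.94, SE 0.28, edgeR adjusted p = 3.44e-05). Of 5 neutrophil genes that passed the filter, Clec4d was called higher and Ltf and Mmp9 lower. Of 9 muscle genes 1, Pvalb, was called, with a summed level of 36.7 to 621.9 CPM in obese mice, mouse 8 being the highest in 8 of the 9. Neither of 2 erythroid genes was called by edgeR (0 at an unadjusted p under 0.05, and 0 by DESeq2 and limma voom).

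Mammary epithelial genes were lower in every obese library. Of 16 luminal epithelial genes 15 were called lower, against 22.4% of all genes, with a median of -2.59. In 14 of them all obese libraries lay below all lean ones, against 1935 of the 14458 genes tested. All 10 tested basal and milk genes were called lower, with a median of -2.63. In control IWAT 6 of 16 and 4 of 10 were called lower, against 7.53% of all genes, with medians of -1.05 and -1.02. Without obese mice 0, 2 and 4 the counts were 14 of 16 and 10 of 10. The summed level of the luminal genes was 1924 to 4255 CPM in lean and 303.5 to 1060 CPM in obese tumor-associated IWAT.

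Elf5, a transcription factor of milk-producing cells, was at 29.4, 24.9, 36.8, 33 and 53.4 CPM in the lean mice and at 2.09, 9.83, 7.71, 4.77, 0.812 and 3.94 CPM in obese mice 0, 1, 2, 3, 4 and 8 (log2 fold change -2.86, SE 0.40, edgeR adjusted p = 2.45e-05). Prlr, the prolactin receptor, fell from 658 to 1577 CPM in lean mice to 33.6 to 383 CPM in obese mice (log2 fold change -2.73, SE 0.53, edgeR adjusted p = 0.000369). Epcam, an adhesion molecule of epithelial and many carcinoma cells, was at 90.2 to 192 CPM in lean and 6.76 to 38.4 CPM in obese mice. Trp63, the master regulator of basal cells, was at 33.8 to 67.3 and 0.812 to 7.37 CPM, and Csn3, which encodes kappa casein, fell by 3.36 (log2). Areg, the growth factor amphiregulin, was the 1 luminal gene not called. Mouse 4 was the lowest obese library in 13 of the 16 luminal and 9 of the 10 basal and milk genes.

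Of 10 Schwann cell genes 5 were called lower and none higher, against 22.4% of all genes called lower. Sox10, the factor that defines these glial cells, was at 32, 21, 30.7, 57 and 41.9 CPM in the lean mice and at 0.406 to 7.85 CPM in the obese mice (log2 fold change -3.22, SE 0.43, edgeR adjusted p = 1.84e-05). Erbb3, the neuregulin receptor that Schwann and luminal cells share, fell by 2.09 (log2). Of 18 endothelial genes, Tek and Vwf were called lower and none higher, a share below that of all genes. The summed endothelial level was 1333 to 1700 CPM in lean and 506.1 to 2182 CPM in obese mice, lowest in mouse 4 and highest in mouse 1. Without obese mice 0, 2 and 4 the endothelial list had 2 genes called higher and 1 lower.

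Of 16 genes of fibroblasts and adipose progenitors 4 were called lower (Dcn, Lum, Pi16 and Cd34) and none higher, a share near the 22.4% of all genes called lower. The calls of Pi16 and Cd34 were lost in 4 and 8 of the alternative fits. Dcn, which encodes the matrix proteoglycan decorin, was at 1186, 1502, 1195, 759 and 1548 CPM in the lean mice and at 333, 737, 401, 758, 90.1 and 679 CPM in obese mice 0, 1, 2, 3, 4 and 8, so that mouse 3 lay just below the lowest lean library (log2 fold change -1.31, SE 0.35, edgeR adjusted p = 0.00422). Its log2 fold change in control IWAT was -0.05. Pdgfra and Pdgfrb, receptors that mark these cells, were not called.

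Of 22 genes of activated fibroblasts, 9 were called higher and 2, Fap and Itga11, lower, against 24.7% and 22.4% of all genes. The counts depended on the fit, with 6 higher and 5 lower by limma voom, and 6 and 2 without obese mice 0, 2 and 4. Tnc, which encodes the wound matrix protein tenascin C, was at 28.2 to 73.1 CPM in lean mice and at 98.9 to 872 CPM in obese mice, highest in mouse 0 (log2 fold change 2.84, SE 0.40, edgeR adjusted p = 3.00e-05). Cd44, the hyaluronan receptor, was at 163, 166, 124, 151 and 114 CPM in the lean and at 310 to 455 CPM in the obese mice (log2 fold change 1.47, SE 0.13, edgeR adjusted p = 5.53e-07). C1qtnf3, the secreted C1q/TNF-related protein on which the study centres, was at 14.2, 13.4, 7.06, 4.51 and 14.5 CPM in the lean mice and at 87.9, 16, 22, 17.1, 23.1 and 24.9 CPM in obese mice 0, 1, 2, 3, 4 and 8. The groups were adjacent without overlap, mouse 0 stood above the other obese mice, and the log2 fold change was 1.57 (SE 0.50, edgeR adjusted p = 0.0136), a call lost without obese mouse 0 (edgeR adjusted p = 0.0769). Of the 7 tested genes of its family, C1qtnf7 was called lower and 5 were not called.

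Of 16 collagen genes 4 were called higher and none lower, a share near the 24.7% of all genes called higher. Control IWAT had 6 called higher and 1 lower. Col12a1, a fibril-associated collagen, was at 120 to 242 CPM in lean and 372 to 2204 CPM in obese mice, highest in mouse 0 (log2 fold change 2.29, SE 0.37, edgeR adjusted p = 8.60e-05), and Col6a3, the source of endotrophin, at 815 to 1385 and 1427 to 2537 CPM. Col1a1 and Col3a1, the main fibrillar collagens, were not called. Of 21 matrix proteases, inhibitors and crosslinkers 9 were called higher and 3 lower. Plaur, the urokinase receptor, was at 7.47 to 12.3 CPM in lean and 30.5 to 102 CPM in obese mice (log2 fold change 2.75, SE 0.26, edgeR adjusted p = 8.84e-07). Timp1, an inhibitor of matrix metalloproteases, rose by 2.19 (log2) without overlap. Mmp2, Mmp9 and Adamts5 were called lower.

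Of 22 Wnt genes and secreted modulators 5 were called higher and 8 lower, against 24.7% of all genes called higher and 22.4% lower. Sfrp5, a Wnt inhibitor of adipocytes, and Mest, an imprinted gene that rises as adipocytes expand, rose by 3.37 and 2.86 (log2), and their log2 fold changes in control IWAT were 5.07 and 4.64. The difference between the pads did not pass the test for either (edgeR adjusted p = 0.119 and 0.072). Mest was at 16.7 to 75.2 CPM in lean and 110 to 382 CPM in obese mice, lowest in mice 4 and 0. Wnt4 and Lgr5 were called lower by 2.70 and 2.31 (log2). Of 18 clock genes 6 were called lower and 1, Gm129, higher. Bhlhe41 fell by 2.10 (log2) without overlap, while Clock and the Per and Cry genes were not called. Of 21 immediate early genes 5 were called higher and 1, Egr3, lower, with Ier3 at 4.63 to 10.9 CPM in lean and 16.3 to 123 CPM in obese mice, and Fos, Jun and Egr1 were not called.

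Whether the diet difference itself differed between tumor-associated and control IWAT was tested for each gene in the same fit. The difference was called at 711 of 14458 genes (4.92%), 373 of them positive and 338 negative, and 4760 had an unadjusted p under 0.05. The number called rested on single libraries and ranged from 1 to 3568 when each tumor-associated library was left out in turn. Of the 711 genes, 339 were called higher and 258 lower in obese tumor-associated IWAT, and 173 were called in control IWAT. Among the lists, 8 of 23 glycolysis and hypoxia genes were called with a positive difference (Slc2a1, Gpi1, Pfkp, Gapdh, Pgk1, Pgam1, Pkm and Ldha), 5 of 22 ribosome biogenesis genes (Myc, Nop2, Dkc1, Bop1 and Odc1), and 5 of 21 stress genes (Hsp90b1, Pdia3, Pdia4, Pdia6 and Asns). Of the cell cycle list 1, Rrm1, was called.

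Among the 10 genes with the smallest p for this difference, Pde7a, a cyclic AMP phosphodiesterase, was called in all 20 fits, counting the one reported here. Its log2 fold change was 0.20 in tumor-associated IWAT, where the groups overlapped, and 1.26 in control IWAT, where obese mice had 153 ± 12 CPM (SD, n = 6) and lean mice 63.7 ± 7.75 CPM (SD, n = 5), a difference of -1.06 (edgeR adjusted p = 0.0163). Pdia6, a disulfide isomerase of the endoplasmic reticulum, rose by 0.63 (log2) in tumor-associated IWAT and was at -0.07 in control IWAT. Ctnnal1, which encodes alpha-catulin, fell by 1.04 (log2) and was at 0.28 in control IWAT. The other 7 were D830031N03Rik, Aldh9a1, Ccr2, 4930594C11Rik, Ap3m2, Cd44 and Plcg1, with differences of -1.41 to 2.00 (log2).

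**Figure D5:**
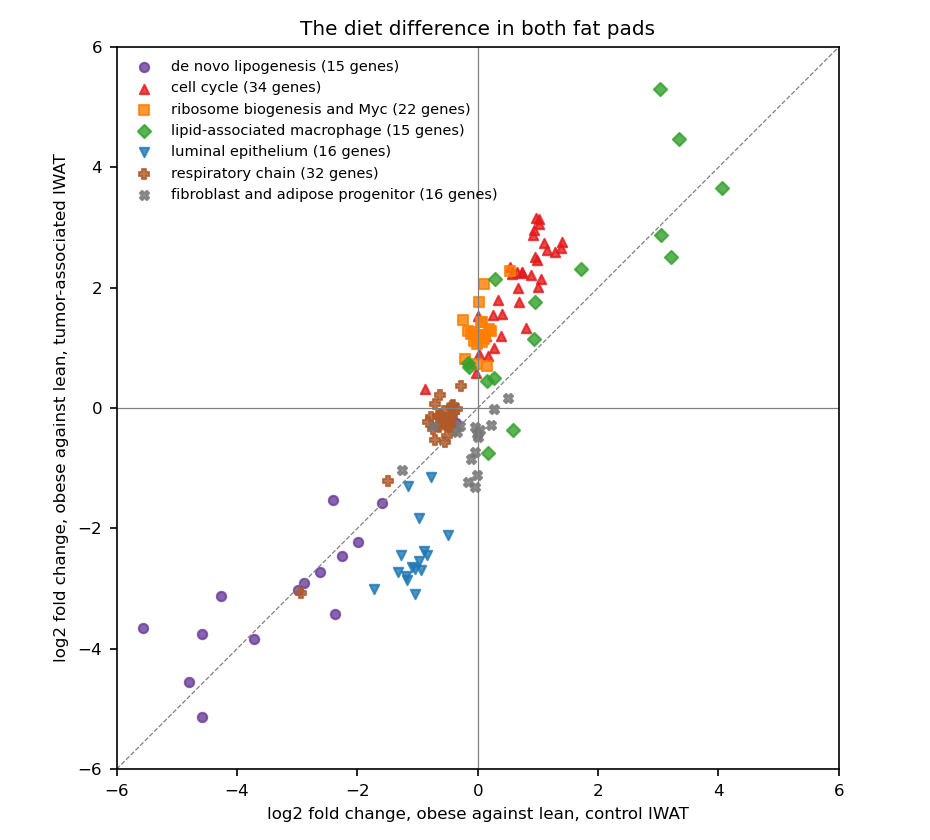
Log2 fold change of obese against lean mice in control IWAT (x axis) and in tumor-associated IWAT (y axis) for the tested genes of 7 lists, 1 point per gene, with a dashed line where both are equal. Lipogenesis genes lay near the line, with medians of -2.89 and -3.03, ribosome biogenesis genes lay near 0 on the x axis with a median of 1.22 on the y axis, and respiratory chain genes were lower in control IWAT, with medians of -0.55 and -0.17.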

How the data were processed

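RNA from tumor-associated and control IWAT was sequenced, and the authors deposited 1 table of raw read counts per gene for 22 libraries. Per the submitters' notes and the study's methods, reads were checked with FastQC, aligned with STAR 2.4.0f and counted with HTSeq, whose strand setting and annotation are not given in the sources used here. The deposited counts hold 23420 genes and 5 HTSeq lines that name no gene, which were left out. No sample column was left unused.

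Genes were kept with edgeR's default filter, scaled by TMM and tested with edgeR 4.0.16 (quasi-likelihood F test, R 4.3.3) over all 4 groups, with Benjamini-Hochberg adjustment over 14458 genes. Log2 CPM used a prior count of 2. Alternatives used DESeq2 1.42.0 and limma 3.58.1, other filters and scaling, and left-out libraries. Scripts were tested on simulated data. No library pair of a group agreed within sampling noise (smallest chi-square per degree of freedom 5.69). Each library is 1 pad of 1 mouse, and control pads come from the same mice, which the reported fit does not use.

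The samples, the 42 gene lists and the rule for named genes were chosen with earlier results of these data known. The rule took the 15 largest changes in each direction without overlap and with at least 10 counts in every library of the higher group, the 3 largest called members per list and direction, each list's most abundant gene, C1qtnf3 and 9 inflammatory genes of interest to the study, and the 10 smallest p for the pad difference. Some genes that this rule takes are not reported here. These genes were named outside it, after their values were seen: Acaca, Elovl5, Dlat, Pdhx, Cox7b, Ppargc1a, Insr, Akt2, Foxo1, Pik3ca, Ccnd1, Top2a, Asns, Gapdh, Pgk1, Csf1r, Lyz2, Cd163, Tnf, Arg1, Nos2, Cpa3, Epcam, Trp63, Areg, Cd34, Pdgfra, Pdgfrb, Col1a1, Timp1, Fos, Jun, Egr1, Slc2a1, Gpi1, Pfkp, Pgam1, Pkm, Ldha, Dkc1, Bop1, Pdia3, Pdia4 and Rrm1. Genes were placed by symbol on the GENCODE annotation of GRCm38 (711 of 715 matched), and RefSeq promoters were matched for 11380 of the 14458 genes.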

Additional observations from a re-analysis of the deposited data

Results flagged for a closer look

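For each gene named above and each list's mean log2 CPM, a library was marked when its gap to the nearest other library of its group, divided by the range of the group, was above Dixon's 95% critical value. Of 448 such tests 24 were marked, and chance marks about 1 in 20. In obese tumor-associated IWAT, mouse 4 was marked as far from the others for fibroblast and adipose progenitor (0.726), C1q/TNF-related family (0.696), Schwann cell (0.669), Wnt and secreted modulators (0.831), Irs1 (0.626), Cxcl12 (0.661), Arg1 (0.708), Pi16 (0.753), Cd34 (0.708), Mmp2 (0.662). Mouse 3 was marked for B cell and plasma cell (0.802), mouse 8 for skeletal muscle (0.725) and mouse 0 for C1qtnf3 (0.743). In lean tumor-associated IWAT, mouse 2 was marked for skeletal muscle (0.751), erythroid (0.849), Arg1 (0.716), Pvalb (1), mouse 6 for Asns (0.819), Mmp2 (0.77), Clock (0.796), Egr3 (0.795), and mouse 0 for Dppa4 (1), Pnma5 (1), Nxf3 (0.766). A value of 1 means that the other 4 libraries were level, at 0 counts.

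A test of the difference itself, the diet effect in tumor-associated minus that in control IWAT (log2), called 36 of the genes named above. It was positive for Cox7b (0.78), Atp5g1 (0.65), Akt1 (0.41), Myc (1.96), Nop2 (1.73), Odc1 (1.74), Hsp90b1 (0.57), Asns (2.11), Gapdh (2.02), Pgk1 (1.86), Gla (1.05), Ccr2 (2.00), Cd44 (0.98), Plaur (1.35), Ier3 (2.29), Slc2a1 (1.73), Gpi1 (1.09), Pfkp (0.89), Pgam1 (1.45), Pkm (1.54), Ldha (1.18), Dkc1 (1.71), Bop1 (1.09), Pdia3 (0.44), Pdia4 (0.55), Pdia6 (0.71), Rrm1 (1.52) and Aldh9a1 (0.92). It was negative for Kit (-1.39), Csn3 (-2.05), Pde7a (-1.06), Ctnnal1 (-1.32), D830031N03Rik (-0.78), 4930594C11Rik (-1.41), Ap3m2 (-0.90) and Plcg1 (-0.83). These calls depended on the fit. Of 20 fits, counting the one reported, all 20 called Pde7a, 15 called Gapdh, 11 called Asns, and 9 called Myc, Nop2, Ier3 and Kit.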

How the results depend on the processing

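The counts of genes called between obese and lean tumor-associated IWAT stayed within 1.5 times of those reported under DESeq2, limma voom with the mouse as a random block, upper-quartile scaling, both other count filters, a fit of these libraries alone, each library left out and mice 2 and 4 left out. With obese mice 0, 2 and 4 left out, an alternative chosen after seeing the data, 4432 genes were called and 2093 of them higher in obese mice. Leaving out 1 library gave 5902 to 7464 genes, and 5251 of the 6802 (77.2%) kept their call in all 11 such fits. With upper-quartile scaling 42.6% of the called genes were higher, against 52.5%. Of the 247 genes taken by the rule or named, 202 were called. None of the 202 changed sign under any alternative run, and 59 lost the call in at least 1, with 31 losing it when 1 library was left out.

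The numbers 0, 2 and 3 occur in both diets but name different mice, whose deviations correlated at 0.05, -0.42 and 0.22, so that they do not pair the samples. A fit with that number as a replicate block called 5432 genes in tumor-associated and 1207 in control IWAT, where leaving out obese tumor-associated mice 0, 2 and 4 gave 4057.

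The count for the difference between pads depended on the setting. It was 2364 by DESeq2, 1309 by limma voom (32.8% of them positive), 18 with no filter on low counts, 186 without mice 2 and 4 and 10 without mice 0, 2 and 4. With 1 library left out it ranged from 1 to 3568: it was 1 without lean mouse 0 or obese mouse 0, 2 without lean mouse 9, 6 without lean mouse 3, 34 without obese mouse 2, 83 without lean mouse 2, 1384 without obese mouse 8, 1486 without obese mouse 3 and 3568 without obese mouse 1. The cause was not tested.

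The genes called lower without obese mice 0, 2 and 4 were 6 of 23 for the TCA cycle and pyruvate dehydrogenase, 5 of 15 for brown and beige fat, 5 of 20 for insulin signaling, 2 of 15 for lipolysis and the lipid droplet, 1 of 19 for fatty acid oxidation and 2 of 20 for cholesterol synthesis. The same fit called 2339 of 14641 genes lower and 2093 higher, and list counts from it stand against those numbers. With upper-quartile scaling 13 of 32 respiratory chain genes were called lower.

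Of the genes named for a call, Mcpt4, Cma1 and Cpa3 lost it without lean mouse 2 (edgeR adjusted p = 0.0711, 0.0833 and 0.135), Pvalb without obese mouse 8 (0.061) and C1qtnf3 without obese mouse 0 (0.0769). Without lean mouse 9, Vwf (0.077), Bst2 (0.0681), Vcan (0.0712), Insr (0.129), Gpi1 (0.0573) and C1qtnf7 (0.0558) lost it. Without lean mouse 3, Adamts5 (0.0624), Pi16 (0.0724), Cd34 (0.0844) and Igj (0.1) did, and without lean mouse 6, Egr3 (0.734), Pdhx (0.109), Rsad2 (0.117) and Oas1a (0.137). Several of these were also lost without another library. The depth limits low genes most. Genes with 3 counts or fewer in a group were still fitted, and the largest rises were ranked with them included. Their folds rest on few counts and are not printed here.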
